A study of Mus musculus with 48 samples.

Results

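Acetylcholine is a transmitter that cholinergic neurons make, pack into vesicles and release, and 9 genes of its making, breakdown and slow receptors were examined here in 4 mouse brain tissues. The genes were Chat (choline acetyltransferase, which makes acetylcholine), Slc5a7 (the high-affinity choline transporter that takes choline back into the terminal), Slc18a3 (the vesicular acetylcholine transporter), Ache (acetylcholinesterase, which breaks acetylcholine down) and Chrm1 to Chrm5 (the muscarinic receptors M1 to M5). They were taken by gene symbol, with the probe set of the highest mean level where a gene had more than 1, and all 9 were found among the 22180 genes with a probe set of a single symbol. All 9 also passed a filter on low mean levels that 17274 genes passed, and every adjusted p-value below is adjusted over those 17274 genes.

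Muscarinic receptors are G protein-coupled receptors: M1, M3 and M5 couple mainly to Gq and raise phospholipase C activity, while M2 and M4 couple to Gi/o and lower cyclic AMP. In the striatum acetylcholine comes mostly from large local interneurons, and M4 is found above all on medium spiny neurons of the direct pathway. The ventral part of the medial habenula holds cholinergic projection neurons whose axons run in the fasciculus retroflexus to the interpeduncular nucleus, and M5 is the muscarinic receptor known from midbrain dopamine neurons.

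The tissues were striatum (STR), habenula (HAB), the part of the ventral midbrain that holds the ventral tegmental area and substantia nigra (SN/VTA) and prefrontal cortex (PFC) of male C57BL/6 mice kept under 12 h of light and 12 h of darkness; their age is not given in the sources used here. Sampling times are counted in hours from the onset of light (ZT); each tissue was taken at ZT 3, 7 and 11 of the light phase and at ZT 15, 19 and 23 of the dark phase, once in each of 2 successive 24-h cycles, which gave 12 arrays a tissue and 48 in all. Each array (Affymetrix Mouse Gene 2.0 ST) carried pooled RNA of 3 mice, so that single mice cannot be seen, and the tissue was cut from coronal slices, which can take in neighbouring tissue. The labels do not say whether the 4 tissues of a sampling hour came from the same mice. Values are deposited log2 levels of a probe set, so that a difference of 1 is a 2-fold difference, and levels of different genes are not set against each other. No measure of detection was used, so it is unknown which low levels lay above background.

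The tissue labels were checked against marker genes. The mean level of 4 measured markers of striatal medium spiny neurons lay between 11.05 and 11.32 in STR, against at most 8.40 elsewhere, and that of 6 habenula markers lay between 7.78 and 8.26 in HAB, against at most 6.18 elsewhere. Of these habenula markers Pou4f1, Tac2, Nhlh2 and Htr5b passed the filter and were lower in STR than in HAB. Gpr151 and Kiss1 did not pass it but are part of the mean. Gpr151 averaged 6.30 in HAB and 4.04 in STR. Kiss1 went the other way and was lowest in HAB (4.33, against 4.55 in STR, 4.52 in SN/VTA and 4.57 in PFC). HAB arrays also carried markers of tissue next to it: 6 hippocampus markers had a mean level between 8.10 and 8.68 in HAB, against 5.99 to 6.35 in STR, and 6 thalamus markers ranged from 7.48 to 9.50 in HAB, against 6.85 to 6.99 in STR. In SN/VTA the thalamus markers ranged from 8.13 to 9.10 and the hippocampus markers from 6.70 to 7.04, so the thalamus signal was not particular to HAB. The mean of 4 cortical glutamatergic markers was 7.63 to 8.70 in HAB, against 5.89 to 6.96 in STR. The mean of 6 choroid plexus markers set HAB arrays apart by cycle: it was 7.14 to 7.56 in 5 of the 6 arrays of the second cycle and 9.34 in the other (ZT15), against 9.02 to 9.45 in all 6 of the first cycle, and 6.61 to 7.67 in STR. The results between STR and HAB are therefore also given by cycle below. Both arrays of a tissue and time gave r of 0.982 to 0.995 across the genes tested.

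The sequences just before the transcription start of 4 of the genes are shown. Chat and Slc18a3 share 1 locus, and Slc5a7, on another chromosome, has the same order of tissue means below. In each of them STR and HAB arrays overlapped, so the order of those tissues is not firm. Chrm4 separates the tissues that the others do not. The sequences are the 250 bases before the RefSeq start (GRCm38.p6), 5′ to 3′ on the strand of the gene. Chat lies at chr14:32465910-32466159 on the minus strand, Slc18a3 at chr14:32464851-32465100 on the minus strand, Slc5a7 at chr17:54299035-54299284 on the minus strand and Chrm4 at chr2:91921939-91922188 on the plus strand. Capitals mark matches, on either strand, to the E-box CACGTG, to TGACG or to GGGCGG.
Chat: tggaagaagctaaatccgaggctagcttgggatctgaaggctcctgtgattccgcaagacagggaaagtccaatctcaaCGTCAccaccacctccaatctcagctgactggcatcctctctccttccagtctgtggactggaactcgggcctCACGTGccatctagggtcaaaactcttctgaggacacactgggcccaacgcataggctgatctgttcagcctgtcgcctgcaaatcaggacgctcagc
Slc18a3: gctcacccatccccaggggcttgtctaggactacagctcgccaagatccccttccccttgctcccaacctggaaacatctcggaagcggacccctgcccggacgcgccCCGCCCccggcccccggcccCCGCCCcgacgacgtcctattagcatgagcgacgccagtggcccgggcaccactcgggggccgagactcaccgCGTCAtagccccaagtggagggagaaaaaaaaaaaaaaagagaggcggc
Slc5a7: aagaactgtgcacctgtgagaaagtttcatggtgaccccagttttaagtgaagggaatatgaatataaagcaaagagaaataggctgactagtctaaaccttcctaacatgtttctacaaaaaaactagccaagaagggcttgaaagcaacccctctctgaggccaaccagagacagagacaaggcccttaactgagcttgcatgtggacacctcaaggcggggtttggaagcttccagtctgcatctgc
Chrm4: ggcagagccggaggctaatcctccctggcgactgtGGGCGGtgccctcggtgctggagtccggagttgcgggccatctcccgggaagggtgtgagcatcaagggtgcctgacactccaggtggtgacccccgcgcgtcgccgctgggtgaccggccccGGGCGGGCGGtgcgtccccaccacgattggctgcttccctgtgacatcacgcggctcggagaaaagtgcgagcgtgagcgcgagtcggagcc
The Slc18a3 gene lies inside the Chat gene on the same strand, with start sites 1059 bases apart, and the files do not say which transcripts each probe set reads. CACGTG was found before Chat and Ache and in 6.02% of 32851 RefSeq windows of this length, TGACG before Chat and Slc18a3 and in 17.8% of windows, and GGGCGG before Chrm4, Ache, Chrm2 and Slc18a3 and in 32.7% of windows. TAATTA, also searched, was found before Chrm5 and in 4.84% of windows. Only 8 members had a window, and Chrm1 had none, so it was not searched. In the Chrm4 window 2 of the 3 GGGCGG matches overlap. None of these letter strings was found in the Slc5a7 window, which says nothing of any factor. The motifs were chosen after the sequences were seen.

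The genes that mark the cholinergic neuron itself were at close levels in STR and HAB and far lower in SN/VTA and PFC. Of the 9 genes only Chrm4 and Chrm3 differed between STR and HAB by at least 2-fold with an adjusted p below 0.05: Chrm4 was 3.93-fold higher in STR and Chrm3 was 2.12-fold lower in STR than in HAB. Among all genes tested 3.42% met this rule, 1.29% higher and 2.14% lower in STR. The median size of the difference was 0.12 on the log2 scale over the 9 genes and 0.21 over all genes tested.

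**Figure D1:**
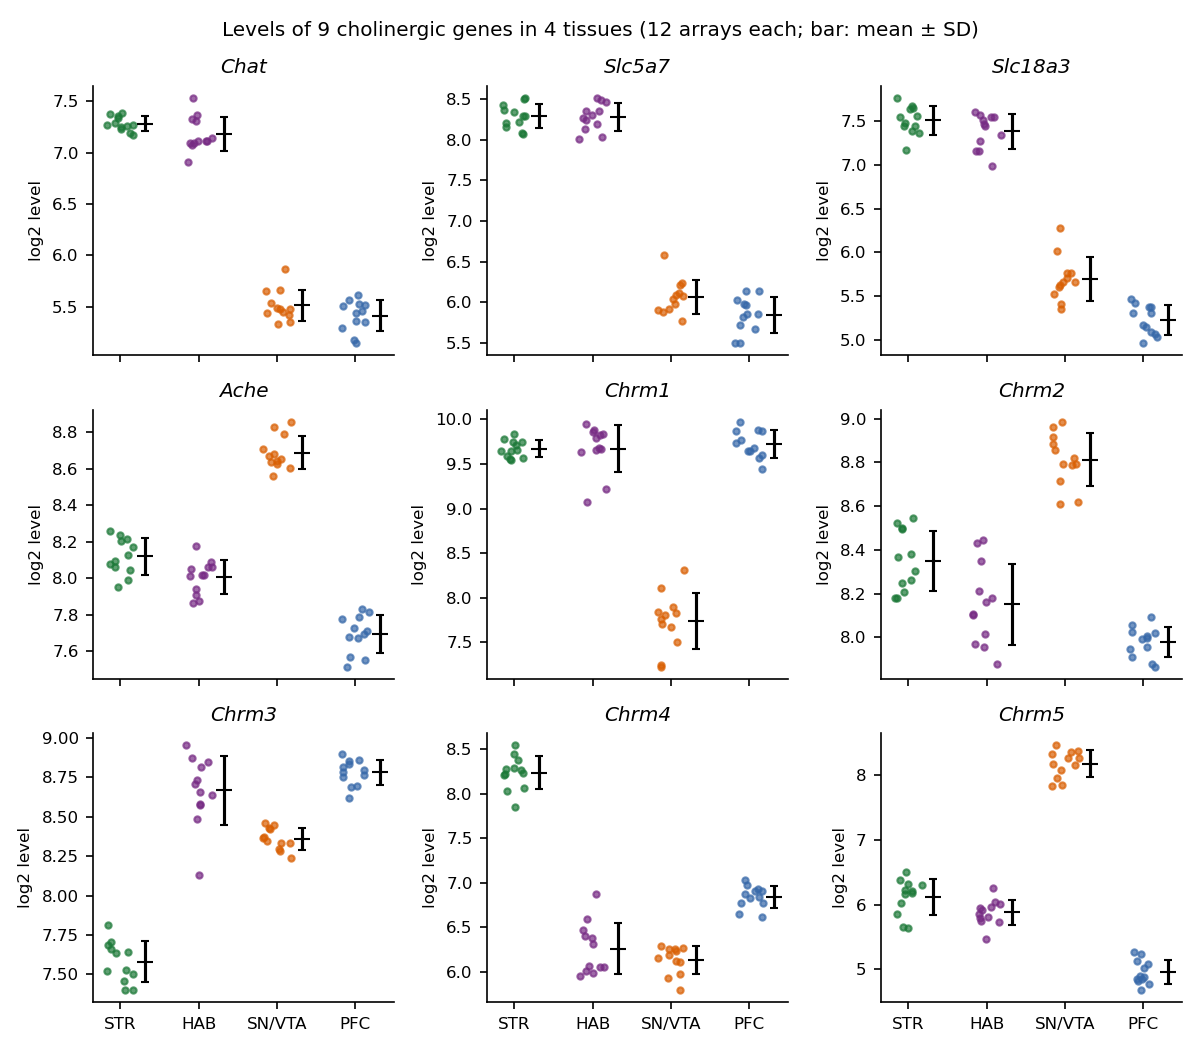
Log2 level of each of the 9 genes in every array, by tissue (STR, HAB, SN/VTA and PFC), 12 arrays a tissue; points are arrays and bars the mean with its SD. Chat, Slc5a7 and Slc18a3 lie at close levels in STR and HAB and lower in SN/VTA and PFC, Chrm4 is high in STR, Chrm3 is low in STR, Chrm1 is low in SN/VTA and Chrm5 is high in SN/VTA.

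Chat had a log2 level of 7.17 at the lowest, 7.27 at the median and 7.39 at the highest of the 12 STR arrays, against 6.91, 7.11 and 7.53 in HAB. In SN/VTA it ran from 5.33 through a median of 5.48 to 5.87, and in PFC from 5.15 through 5.45 to 5.61. The STR and HAB arrays overlapped, and every one of them lay above every SN/VTA and PFC array. The mean in STR exceeded that in HAB by 0.10 ± 0.06 (SE; 95% interval -0.01 to 0.21; adjusted p 0.108 by limma), an interval well below 2-fold. Whether it passed an adjusted p of 0.05 depended on the processing: it was 0.17 (adjusted p 0.00572) with quantile normalization and 0.13 (adjusted p 0.0285) without the HAB array of ZT19 in the first cycle. STR exceeded SN/VTA by 1.77 and PFC by 1.87, and HAB exceeded SN/VTA by 1.67 (3.18-fold) and PFC by 1.77. SN/VTA minus PFC was 0.10 (adjusted p 0.108), but 0.22 with each array centred on its median (adjusted p 0.000661) and 0.25 with quantile normalization (adjusted p 9.37e-05). It also had an adjusted p below 0.05 without the first-cycle ZT23 array of SN/VTA (0.13) and without the first-cycle ZT23, second-cycle ZT11 or second-cycle ZT19 array of PFC (0.13 each). In these tissue pieces fewer cholinergic cells and less RNA per cell cannot be told apart.

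Slc5a7 lay at 8.08, 8.30 and 8.51 (lowest, median and highest) in STR, against 8.01, 8.29 and 8.51 in HAB. It lay at 5.77, 6.05 and 6.58 in SN/VTA and at 5.50, 5.85 and 6.14 in PFC. Its ranges in STR and HAB were all but the same, and both stood clear of the other tissues. The STR to HAB difference was 0.01 ± 0.07 (95% interval -0.14 to 0.16; adjusted p 0.905), while STR exceeded SN/VTA by 2.23 (4.68-fold) and PFC by 2.45 (5.46-fold), and HAB exceeded SN/VTA by 2.22 (4.65-fold) and PFC by 2.44.

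Slc18a3 lay at 7.16, 7.51 and 7.76 in STR and at 6.98, 7.45 and 7.60 in HAB. It lay at 5.36, 5.66 and 6.28 in SN/VTA and at 4.97, 5.25 and 5.47 in PFC. It followed the pattern of Chat, in whose gene it lies: STR and HAB overlapped with a difference of 0.12 ± 0.08 (95% interval -0.04 to 0.29; adjusted p 0.180), and both lay above the other tissues, by 1.80 for STR over SN/VTA, 2.27 for STR over PFC, 1.68 for HAB over SN/VTA and 2.15 for HAB over PFC. The SN/VTA mean exceeded the PFC mean by 0.47 (adjusted p 7.96e-06). Under quantile normalization STR exceeded HAB by 0.20 (adjusted p 0.0312).

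The SN/VTA array of ZT23 in the second cycle had the highest level of that tissue for Chat (5.87), Slc5a7 (6.58) and Slc18a3 (6.28). The same array was also the highest of the 12 in Prph (6.49) and Calcb (6.31), which brainstem motor neurons express, while Isl1 at 6.39 ranked 6 of 12 there. The mean of 4 such markers, Prph, Calcb, Mnx1 and Tbx20, ran from 5.16 to 5.62 in SN/VTA. Mnx1 and Tbx20 did not pass the filter and were not ranked by array. The part of motor neurons in the high values was not tested.

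Ache, which is expressed by many neurons besides cholinergic ones, varied far less between tissues. It lay at 7.95, 8.11 and 8.26 in STR, 7.86, 8.02 and 8.18 in HAB, 8.56, 8.66 and 8.86 in SN/VTA and 7.51, 7.70 and 7.83 in PFC. It was highest in SN/VTA, where all arrays lay above those of the other tissues, followed by STR, HAB and PFC. STR exceeded HAB by 0.11 ± 0.04 (adjusted p 0.00839) with overlapping arrays, or by 0.07 (adjusted p 0.136) with each array centred on its median, and the difference of SN/VTA over PFC, 0.996, fell just short of 2-fold (1.11 with each array centred on its median, and up to 1.01 with single arrays left out).

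Chrm4 separated STR from all other tissues. It lay at 7.85, 8.25 and 8.54 in STR, against 5.95, 6.19 and 6.87 in HAB, 5.79, 6.17 and 6.29 in SN/VTA and 6.62, 6.86 and 7.03 in PFC. Every STR array lay above every array of the other 3 tissues. The STR level exceeded that of HAB by 1.97 ± 0.08 on the log2 scale (adjusted p 9.29e-19), that of SN/VTA by 2.10 and that of PFC by 1.39, and HAB exceeded SN/VTA by 0.13 (adjusted p 0.162). That small difference was unstable: it was 0.20 (adjusted p 0.0190) without the HAB array of ZT23 in the first cycle, 0.18 (adjusted p 0.0417) without that of ZT7 in the second, 0.06 without that of ZT23 in the second, 0.08 without that of ZT7 in the first, and just below 0 with each array centred on its median. Among all genes tested, 17.5% had STR and HAB arrays that did not overlap; of the 9 genes these were Chrm4 and Chrm3.

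Chrm2, the other Gi/o-coupled receptor and the M2 autoreceptor of many cholinergic terminals, was highest in SN/VTA and differed by less than 2-fold between tissues. It lay at 8.18, 8.33 and 8.54 in STR, 7.88, 8.13 and 8.44 in HAB, 8.61, 8.81 and 8.98 in SN/VTA and 7.87, 7.99 and 8.09 in PFC. STR exceeded HAB by 0.20 ± 0.06 (adjusted p 0.00306 by limma) with overlapping arrays. SN/VTA exceeded STR by 0.46, HAB by 0.66 and PFC by 0.83, and all its arrays lay above those of the other tissues. All neighbours in the order SN/VTA, STR, HAB and PFC differed with an adjusted p below 0.05, none by 2-fold. By adjusted p alone 5 of the 9 genes differed between STR and HAB (Ache, Chrm2, Chrm4 and Chrm5 higher and Chrm3 lower in STR), against 70.4% of all genes tested. The count was 4 with each array centred on its median (without Ache), 7 with quantile normalization (with Chat and Slc18a3) and 6 without the HAB array of ZT19 in the first cycle (with Chat).

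Chrm3 was the receptor lower in STR. It lay at 7.40, 7.58 and 7.81 in STR, against 8.13, 8.68 and 8.95 in HAB, 8.24, 8.36 and 8.46 in SN/VTA and 8.62, 8.79 and 8.90 in PFC. Every STR array lay below every array of the other 3 tissues, by 1.09 ± 0.06 in the mean against HAB (adjusted p 5.27e-16), 0.78 against SN/VTA and 1.20 against PFC. HAB minus PFC was -0.11 (adjusted p 0.0820). It was -0.18 (adjusted p 0.000212) without the HAB array of ZT23 in the second cycle, -0.05 without that of ZT23 in the first, -0.13 without the first-cycle HAB array of ZT7 or of ZT11 (adjusted p 0.0487 and 0.0497), and -0.14 (adjusted p 0.0382) with each array centred on its median.

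Chrm1 was at close levels in STR, HAB and PFC and lower in SN/VTA by its main probe set. It lay at 9.54, 9.65 and 9.84 in STR, 9.07, 9.73 and 9.94 in HAB, 7.23, 7.78 and 8.31 in SN/VTA and 9.44, 9.70 and 9.97 in PFC. STR minus HAB was -0.00 ± 0.09 (95% interval -0.19 to 0.19; adjusted p 0.975), and STR and HAB exceeded SN/VTA by 1.92 and 1.93. A second Chrm1 probe set disagreed: its means were 5.81 in STR, 5.80 in HAB, 5.66 in SN/VTA and 5.39 in PFC, and it correlated with the first at r = -0.03 over the 48 arrays. These means lay below the medians of the arrays (5.84 to 6.07). Whether that probe set lay above background is unknown. With the mean of both probe sets, SN/VTA minus PFC was -0.85 in place of -1.98, and STR and HAB exceeded SN/VTA by 1.03 each. That rule also turned the direction against PFC: STR minus PFC was 0.18 (adjusted p 0.0220) in place of -0.05 and HAB minus PFC 0.18 (adjusted p 0.0258) in place of -0.05.

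Chrm5, like Chrm2, was highest in SN/VTA, but by at least 2-fold over every other tissue. It lay at 7.84, 8.22 and 8.46 in SN/VTA and at 5.64, 6.20 and 6.51 in STR. In HAB it lay at 5.46, 5.89 and 6.27 and in PFC at 4.68, 4.88 and 5.26. All SN/VTA arrays stood clear of all others, with STR lower than SN/VTA by 2.06 and HAB lower than SN/VTA by 2.30 (4.91-fold). STR exceeded HAB by 0.24 ± 0.07 (adjusted p 0.00538) with overlapping arrays. Both exceeded PFC, by 1.17 for STR and 0.93 for HAB.

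Counted over the 9 genes, 5 were at least 2-fold higher (1.95% of all genes tested) and 1 was lower (3.24%) in STR than in SN/VTA. Likewise 5 were higher (2.64%) and 1 lower (3.59%) in STR than in PFC, and 4 were higher (2% of all genes) and 1 lower (1.58%) in HAB than in SN/VTA. In HAB 3 were higher than in PFC (3.2%) and 0 lower (2.48%), although Chrm4 differed by -0.58. In SN/VTA Chrm5 alone was higher than in PFC (6.18%) and Chrm1 alone was lower (3.15%). Arrays did not overlap for 9 of 9 genes between STR and SN/VTA (33.8% of all genes), for 8 between STR and PFC (29.6%), for 7 between HAB and SN/VTA (27.3%), for 5 between HAB and PFC (30.3%) and for 6 between SN/VTA and PFC (40.5%). These comparisons share arrays with each other.

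**Figure D2:**
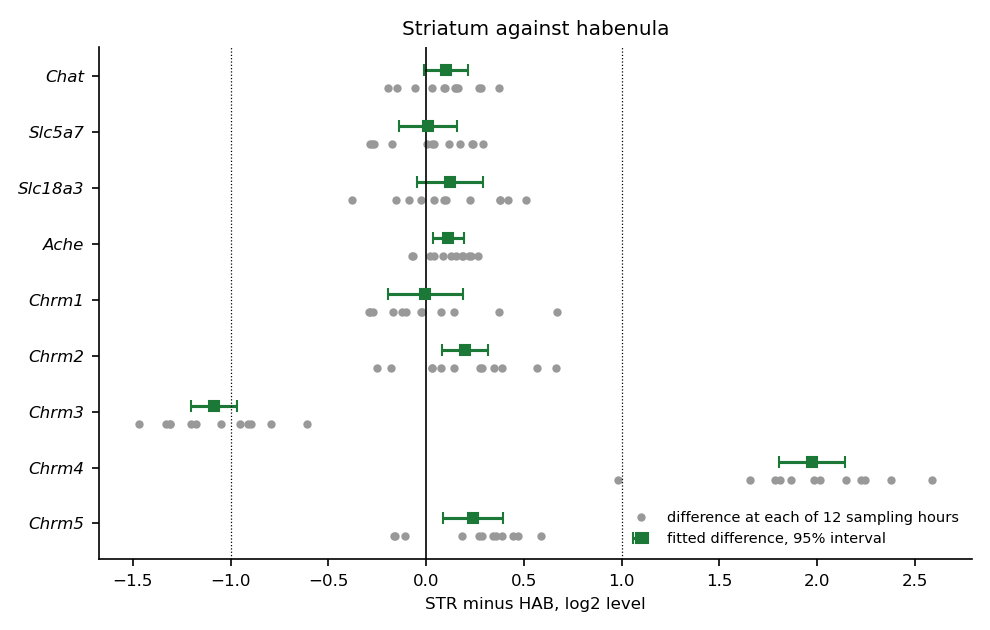
STR minus HAB on the log2 scale for the 9 genes; points are the 12 sampling hours (STR array minus HAB array of the same hour) and the bar the fitted difference with its 95% interval. Chrm4 is positive and Chrm3 negative at 12 of 12 hours, while the points of the other 7 genes fall on both sides of 0.

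The difference between STR and HAB was then read at each sampling hour. Chrm4 was higher in STR at 12 of 12 hours, by 0.98 to 2.59, and Chrm3 was lower in STR at 12 of 12 hours, with differences of -1.47 to -0.61. Within the second and the first cycle the mean difference was 1.90 and 2.05 for Chrm4 and -1.14 and -1.03 for Chrm3. It was 0.14 and 0.06 for Chat, 0.06 and -0.04 for Slc5a7, 0.18 and 0.07 for Slc18a3, 0.11 and 0.12 for Ache, -0.06 and 0.05 for Chrm1, 0.29 and 0.10 for Chrm2, and 0.25 and 0.23 for Chrm5. Slc5a7 and Chrm1 changed sign between the cycles, while Chat, Slc18a3, Ache, Chrm2, Chrm3, Chrm4 and Chrm5 kept theirs. For Chrm4 and Chrm3 the STR and HAB arrays did not overlap. Their signs at each hour and in each cycle follow from that and add no further support. Chat was higher in STR at 9 hours, Slc5a7 and Slc18a3 at 8, Ache and Chrm2 at 10, Chrm5 at 9 and Chrm1 at 4 of 12 hours. By time of day, with 2 arrays a group, Chrm4 was at least 2-fold higher in STR at all 6 times, with differences of 2.11, 2.19, 1.84, 1.90, 2.30 and 1.50 from ZT3 to ZT23. Chrm3 met the rule at ZT7, ZT11, ZT15 and ZT19 (-1.11, -1.32, -1.19 and -1.08) and stayed under 2-fold at ZT3 (-0.85, adjusted p 3.81e-05) and ZT23 (-0.96, adjusted p 4.94e-06). With 1 array left out it missed the rule at ZT7 (-0.99 without the HAB array of the first cycle) and at ZT19 (-0.99 without the HAB array of the second), and met it at ZT23 (-1.37 without the HAB array of the first cycle, -1.02 without the STR array of the second), where it shrank to -0.55 without the HAB array of the second cycle. Of all genes tested 3.28%, 3.87%, 3.69%, 3.88%, 3.79% and 3.66% met it from ZT3 to ZT23. None of the other 7 genes met it at any of the 6 times.

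**Figure D3:**
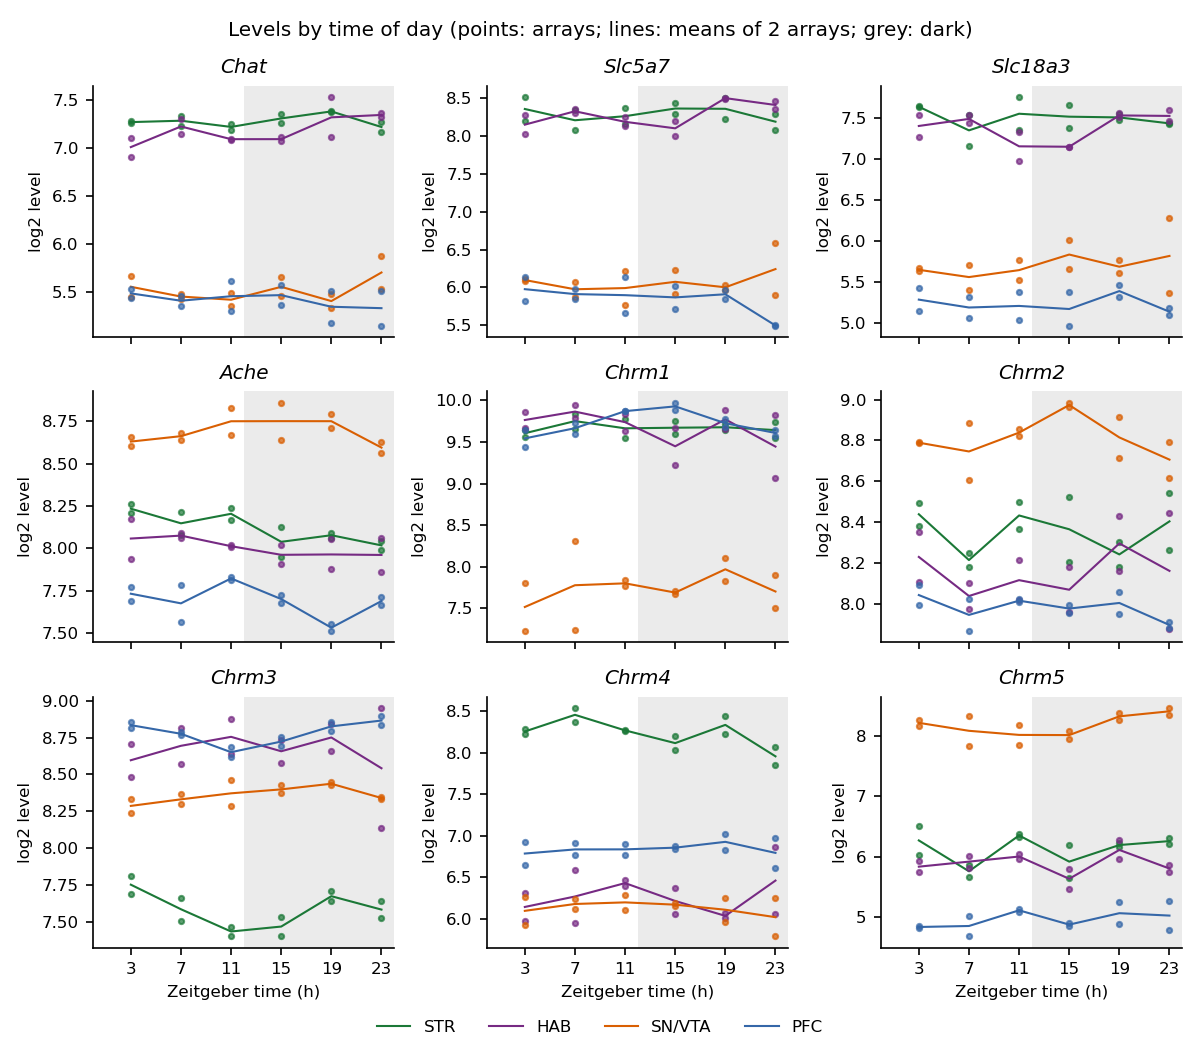
Mean log2 level of the 9 genes by Zeitgeber time (h) in each tissue, with the arrays of both 24-h cycles as points; the dark phase is shaded. Chrm4 in STR and Chrm5 in SN/VTA stay above, and Chrm3 in STR below, the other tissues at all 6 times, and 0 of 9 genes had a daily rhythm with an adjusted p below 0.05 in any of the 4 tissues.

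No daily rhythm was found in the 9 genes. By limma's joint F test of a 24-h cosine and sine, 0 of 9 genes had an adjusted p below 0.05 in STR, HAB, SN/VTA or PFC, against 0.0174%, 0.0174%, 0.162% and 0.179% of all genes tested. At an unadjusted p below 0.05 the counts were 1 gene in STR (Chrm3), 1 in HAB (Slc18a3), 1 in SN/VTA (Chrm5) and 2 in PFC (Chrm1 and Chrm3), where 8.49%, 6.3%, 9.87% and 11.6% of all genes passed. The smallest p was that of Chrm1 in PFC, with an amplitude (mean to peak) of 0.19 ± 0.04 on the log2 scale, a peak at ZT 13.8 and an adjusted p of 0.107. Chrm5 in SN/VTA had an amplitude of 0.20 ± 0.06 (adjusted p 0.340) and Slc18a3 in HAB one of 0.18 ± 0.06 (adjusted p 0.765). A rhythm shared by the 4 tissues was found for 0 of 9 genes, against 5.55% of all genes. At an unadjusted p below 0.05 it was found for 1 gene, against 19.1% of all genes: Ache (amplitude 0.06, p 0.0227, adjusted p 0.169).

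The means of the 6 times stayed close. Those of Chat in STR ran from 7.22 at ZT23 to 7.38 at ZT19, and in HAB from 7.01 at ZT3 to 7.35 at ZT23. Those of Chrm4 in STR ran from 7.96 at ZT23 to 8.46 at ZT7, and those of Chrm5 in STR, the widest range of the 9 genes in any tissue, from 5.76 at ZT7 to 6.35 at ZT11. The test of a difference in rhythm between STR and HAB called 0 of 9 genes (0% of all genes; 0 of 9 also at an unadjusted p below 0.05, which 4.9% of all genes had), and that between the 4 tissues called 0 of 9 (0.0289% of all genes; unadjusted 0 of 9, against 6.64%). Between the second and the first cycle 0 of 9 genes passed an adjusted p below 0.05 in STR, HAB, SN/VTA or PFC by limma, against 0%, 0.00579%, 0% and 0% of all genes. Unadjusted, 0, 0, 1 and 1 genes passed, against 5.23%, 7.92%, 10.1% and 4.11% of all genes. Chat in SN/VTA had the smallest p, at 5.59 in the second cycle and 5.43 in the first (unadjusted p 0.0115, adjusted p 0.375).

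Within HAB the cholinergic neuron genes were higher in arrays with higher habenula markers. Over the 12 HAB arrays the mean level of the 6 habenula markers correlated with Slc18a3 at r = 0.80 (rho 0.84, adjusted permutation p 0.0177 for r and 0.00918 for rho). It correlated with Slc5a7 at r = 0.79 (rho 0.87, adjusted permutation p 0.0177 and 0.00513) and with Chat at r = 0.76 (rho 0.78, adjusted permutation p 0.0177 and 0.0188). These p-values are adjusted over 27 relations, of 9 genes with 3 marker lists. Without the 2 arrays farthest from the median marker level r was 0.77 for Slc18a3, 0.82 for Slc5a7 and 0.70 for Chat. Within the second and the first cycle r was 0.74 and 0.90 for Slc18a3, 0.77 and 0.87 for Slc5a7, and 0.64 and 0.90 for Chat. The permutations take the 12 arrays as exchangeable, although both arrays of a time of day had similar habenula marker levels. After the mean of each time was subtracted, a step chosen after seeing the data and given with no test, r was 0.83 for Chat but 0.25 for Slc5a7 and 0.40 for Slc18a3; over the means of the 6 times it was 0.79, 0.91 and 0.91. For Slc5a7 and Slc18a3 the relation thus lay mostly between times of day.

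With an adjusted permutation p below 0.05 the thalamus markers ran against 3 receptors in HAB. Their mean level correlated with Chrm3 at r = -0.77 (rho -0.81, adjusted permutation p 0.0177 and 0.0149), with Chrm1 at r = -0.76 (rho -0.88, adjusted permutation p 0.0177 and 0.00513) and with Chrm5 at r = -0.69 (rho -0.77, adjusted permutation p 0.0440 and 0.0200). Without the 2 farthest arrays r was -0.83, -0.74 and -0.55 for Chrm3, Chrm1 and Chrm5. Within the second and the first cycle r was -0.66 and -0.85 for Chrm3, -0.69 and -0.81 for Chrm1, and -0.68 and -0.70 for Chrm5. After the mean of each time was subtracted r was -0.83 for Chrm3, -0.72 for Chrm1 and -0.71 for Chrm5. On that measure the other members ran from -0.78 (Chrm4) and -0.61 (Slc5a7) to 0.59 (Chrm2). In the second cycle r was also -0.85 for Slc5a7 and -0.81 for Slc18a3, against -0.29 and -0.18 in the first. An inverse relation was thus not particular to these receptors. The relation of Chrm5 was the least firm: its adjusted p was 0.0608 with each array centred on its median, and below 0.05 in only 4 of the 12 runs with 1 array left out (up to 0.170, without the ZT19 array of the second cycle). Chrm1 correlated with the hippocampus markers at r = 0.77 (adjusted permutation p 0.0315), but with rho 0.43 (0.434) and r = 0.03 without the 2 farthest arrays, so that relation rests on those arrays, ZT15 of the second and ZT23 of the first cycle. All 7 relations lost their adjusted p below 0.05 when the HAB array of ZT23 in the first cycle was left out (r of 0.73, 0.80 and 0.78 for Chat, Slc5a7 and Slc18a3 with habenula markers, each adjusted p 0.0574), and without that of ZT19 in the first cycle 4 of them kept it. With the ZT15 and ZT23 arrays left out STR minus HAB was -1.14 for Chrm3, 1.93 for Chrm4 and -0.10 for Chrm1 (adjusted p 0.313). What share of the receptor levels in HAB came from thalamus or hippocampus was not tested.

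**Figure D4:**
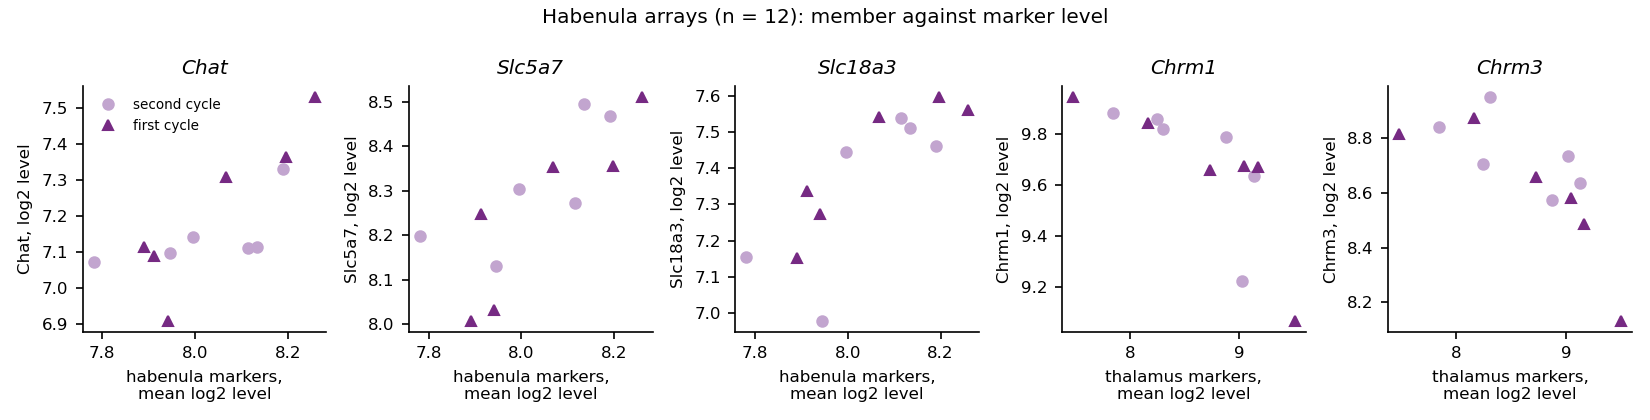
Log2 levels of Chat, Slc5a7, Slc18a3, Chrm1 and Chrm3 in the 12 HAB arrays against the mean log2 level of marker lists in the same array; colours and shapes give the 24-h cycle. Chat, Slc5a7 and Slc18a3 are higher in arrays with more habenula marker signal, and Chrm1 and Chrm3 are lower in arrays with more thalamus marker signal.

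Other genes of the acetylcholine system were counted in 4 lists by the rule of an adjusted p below 0.05 and a 2-fold difference. Among all genes tested 1.29% met it as higher and 2.14% as lower in STR than in HAB. Nicotinic receptor subunits form the fast ion channels for acetylcholine. By this rule 0 of 9 were higher and 4 lower in STR than in HAB. Chrna3 averaged 6.59 ± 0.18 in STR and 10.61 ± 0.20 in HAB (SD, n = 12 each), a difference of -4.01. Chrnb4 differed by -3.34, Chrnb3 by -2.63 and Chrna4 by -1.10. The Chrna4 arrays overlapped, at 8.20 to 10.09 in HAB (SD 0.54) and 8.07 to 8.45 in STR (SD 0.13). Chrna2 was the only subunit with a higher mean in STR (0.64, under 2-fold). The median of the list was -0.42, against -0.01 over all genes tested. Of 8 transcription factors, trophic receptors and the co-transmitter gene of cholinergic neurons 7 were tested. By the same rule 3 were higher and 1 lower in STR. Isl1 (difference 2.11) and Lhx8 (1.94), which specify forebrain cholinergic neurons, and Nkx2-1 (1.00) were higher, and Zic4 (-1.02) was lower. By less than 2-fold, Ngfr (0.76) and Slc17a8 (0.65) were higher and Gbx2 (-0.79) was lower.

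Of 14 partners of muscarinic signalling 13 were tested, with 2 higher and 2 lower in STR by the same 2-fold rule. Adcy5, the main adenylyl cyclase of striatal medium spiny neurons, was higher by 1.94 and Kcnq5, a subunit of the M-current channel that muscarinic receptors close, by 1.02. Kcnq5 and, in the list before, Nkx2-1 and Zic4 lay close to the 2-fold limit. The lists were not rerun with other scalings or with arrays left out, so their counts may shift. Kcnj6 (-2.02) and Kcnj3 (-1.40), subunits of the potassium channel that Gi/o-coupled receptors open, were lower. Of 8 genes of acetylcholine breakdown and choline supply 6 were tested and 0 differed by 2-fold between STR and HAB in the limma fit, although Slc44a1, a choline transporter-like protein, differed by -0.33 (adjusted p 2.95e-09).

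**Figure D5:**
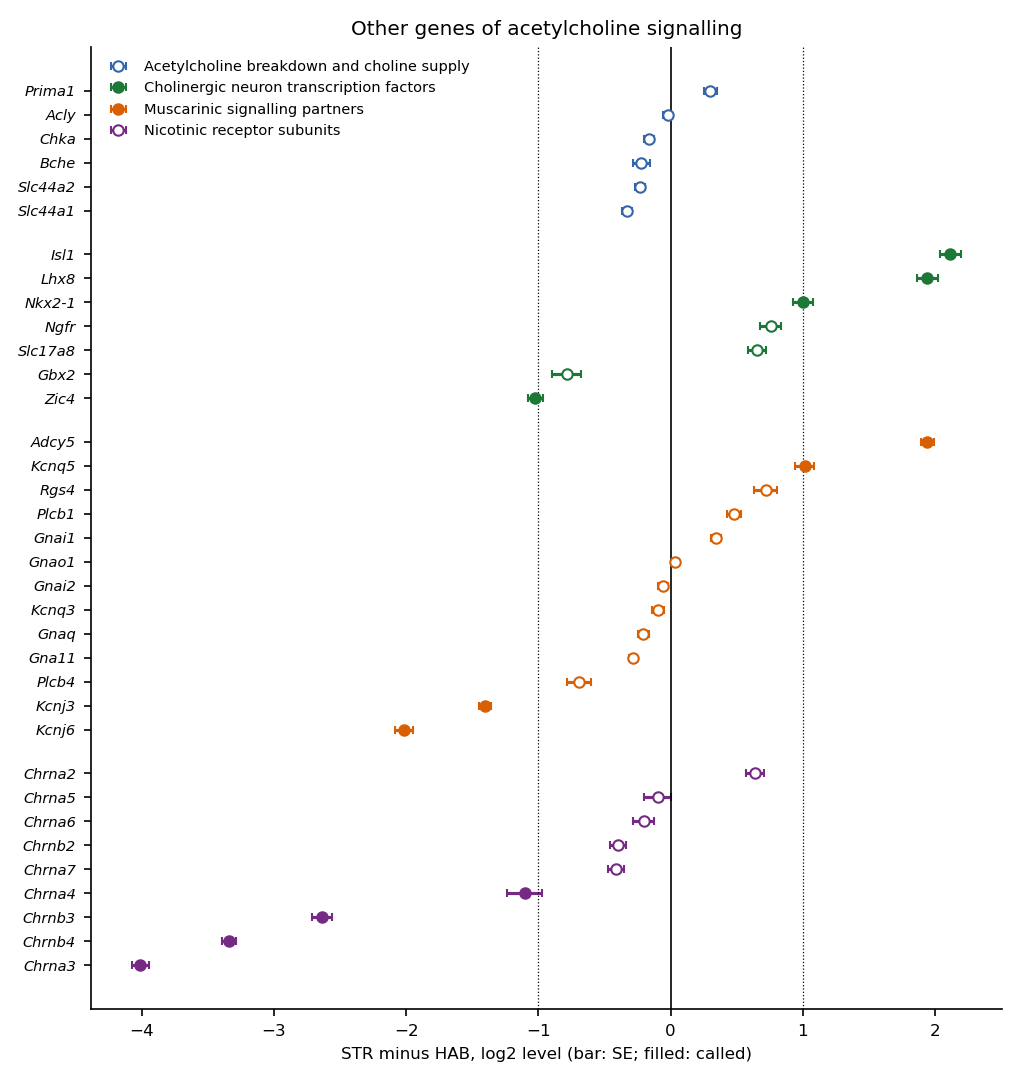
STR minus HAB on the log2 scale for the tested genes of 4 lists of the acetylcholine system, 1 point a gene with a bar of 1 SE; filled points met the rule of an adjusted p below 0.05 and a 2-fold difference. Nicotinic subunits reach -4.01 (Chrna3), while the genes of acetylcholine breakdown and choline supply lie between the lines at -1 and 1.

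The genes whose pattern over the 48 arrays was most like that of each member are given as a description; the points share tissues, so the values mostly follow the 4 tissue means. The members themselves, predicted genes and small RNA genes were left out of this ranking. Chrm4 was most like Drd1 (r = 0.967), the dopamine receptor of direct-pathway neurons, then Cacna2d3 and Actn2. Chrm5 was most like Slc18a2 (r = 0.971), the vesicular monoamine transporter, then Tmem229a and Ddc (r = 0.970), which makes dopamine from L-DOPA. Among the genes ranked, Chat and Slc5a7 had the same 3 nearest, Auts2, Sh3bgrl3 and Syt6, with r of 0.952 at most for both. Slc18a3 was nearest to Pabpn1 (r = 0.958). These members were closer to each other: r was 0.987 for Chat with Slc5a7, 0.974 for Chat with Slc18a3 and 0.980 for Slc5a7 with Slc18a3. Chrm1 was nearest to Ddn (r = 0.978), which encodes a protein of dendrites, and kept it as nearest (r = 0.834) after each tissue mean was subtracted, followed by Crym and Nrgn. Ache was nearest to Pigt (r = 0.964), Chrm2 to Tox2 (r = 0.943) and Chrm3 to Ppm1e (r = 0.966).

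After tissue means were subtracted, Slc5a7 and Slc18a3 correlated at r = 0.51, Chat and Slc5a7 at 0.47 and Chat and Slc18a3 at 0.39 over the 48 arrays. Within STR the 3 values were 0.67, 0.32 and 0.03, and within HAB 0.76, 0.73 and 0.60, each over 12 arrays. Chat and Slc18a3, although at 1 locus, thus had almost no correlation among the STR arrays. Their order of tissue means was also that of Slc5a7, on another chromosome.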

How the data were processed

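Total RNA (RNeasy columns) of 3 mice was pooled for each of 48 arrays and labelled with the WT Pico kit, per the labels' protocols. The authors' deposited values are read as log2 levels of probe sets, because they span 1.09 to 13.65 and the median of an array lies between 5.84 and 6.07; how they were background-corrected, summarised and scaled is not given in the sources used here. Each of the 48 columns bore the name of 1 sample. Of 41345 rows the platform annotation listed 25335, of which 23521 had 1 gene symbol and 1814 several; the several-symbol rows were left out. The highest-mean row was taken for each of 22180 genes, and the 17274 with a mean of at least 5.05, the 30th percentile of rows, were tested. The members and gene lists were chosen with earlier results of these data known.

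Tests used limma 3.58.1 in R 4.3.3 (lmFit and eBayes, Benjamini-Hochberg over the genes tested), and the R package data.table in version 1.17.8. Tissues were compared in 1 fit with a mean for each of the 24 combinations of tissue and time and 24 residual degrees of freedom, and a gene was called at an adjusted p below 0.05 and a difference of at least 1 on the log2 scale. A rhythm was the F test of a 24-h cosine and sine over the 12 arrays of a tissue, with 9 residual degrees of freedom. Correlations in HAB were tested with 100000 permutations, two-sided (scipy 1.17.1, Python 3.11.15; figures in matplotlib 3.10.9). The fits were also run on simulated data. A minimum share of recovered genes was required there only for the STR to HAB difference and the shared rhythm. How small a rhythm within a tissue could be found was not assessed. All 9 members were named, with the 3 most correlated genes outside the 9 for each and at most 4 genes of a list. Slc44a1 and the SN/VTA array of ZT23 were picked with their values in view.

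Replicate numbers mark the 24-h cycle, per the labels. Correlations of deviations from group means were averaged over pairs of arrays. The mean r was 0.0357 between arrays of 1 tissue and cycle (60 pairs, -0.16 to 0.41). Between tissues of 1 sampling hour it was 0.0357 (36 pairs, -0.12 to 0.25), and otherwise 0.00543 (180 pairs, -0.18 to 0.28). Alternatives were other scalings, filters and probe set rules, the cycle or sampling hour as a block, the 24 arrays of the 2 tissues alone and arrays left out in turn. The number of arrays limits the precision.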

Additional observations from a re-analysis of the deposited data

How the results depend on the processing

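The 2 calls between STR and HAB held in every alternative run: Chrm4 stayed between 1.91 and 2.07 and Chrm3 between -1.15 and -1.02, arrays left out in turn included. The count of members called stayed at 2 with the replicate block, which changed no call of the 9 genes (Chrm4 1.97, Chrm3 -1.09 with the block), and the counts of rhythms, rhythm differences and cycle differences stayed at 0. Differences near 0 changed sign: STR minus HAB of Slc5a7 was -0.0351 with each array centred on its median and -0.0152 to 0.0359 with arrays left out, and that of Chrm1 was 0.0138 with quantile normalization, 0.00459 with the mean of both probe sets and -0.0660 to 0.0590 with single arrays left out. HAB minus SN/VTA of Chrm4 was -0.00947 when centred and -0.00805 with quantile normalization. With quantile normalization Chrm1 was 0.0331 for STR minus PFC and 0.0193 for HAB minus PFC; with the mean of both probe sets these were 0.184 (adjusted p 0.0220) and 0.179 (adjusted p 0.0258). HAB minus PFC of Chrm1 was -0.114 to 0.0111 with single arrays left out and 0.0487 without the 2 HAB arrays lowest in hippocampus markers, a setting chosen after seeing the data. By the mean of probe sets 1 member in place of 2 was called between SN/VTA and PFC; the second Chrm1 probe set is in that mean. The members called between STR and HAB numbered 2 in place of 1 at ZT23 when centred; leaving out arrays gave 1 to 2 at ZT23, ZT7 and ZT19. Relations with HAB markers called numbered 0 to 8 with arrays left out. Centring moved the median of all genes from -0.06 to -0.25 for STR minus SN/VTA and from -0.07 to -0.21 for HAB minus SN/VTA, and the share of calls that were higher from 37.5% to 17.9% and from 55.8% to 35.9%. Small differences crossed an adjusted p of 0.05 in some settings: between STR and HAB 4 to 7 genes passed it, against 5 as reported. The causes were not tested.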
